A study of Mus musculus with 20 samples.

Results

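Ikbkg encodes NEMO, the regulatory subunit of the IκB kinase (IKK) complex, and this account follows it with 9 partner genes of the NF-κB pathway through liver and subcutaneous adipose tissue (SAT). The members are Ikbkg, Ikbkb and Chuk (the IKK complex), Nfkb1, Nfkb2, Rela and Relb (transcription factor subunits), and Nfkbia, Nfkbib and Tnfaip3 (inhibitors), 10 of 40757 entries of the count table, each found once. They were chosen by symbol with earlier results of these libraries in view. Which value singled out Ikbkg is not recorded; it ranked 10 of 17078 genes by p for the effect of surgery in liver. The surgery differences of all 10 members are therefore given as a description. Where members called over all genes are counted in those comparisons, nothing is read from the count.

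The mice were male C57BL/6J bought from a supplier and operated on at 8 to 9 months of age. One group of mice lost the epididymal visceral adipose tissue (VAT) pads, and the sham group had the abdomen opened with the pads left in place. All of them, sham mice included, ate a high-fat diet from the operation on, after ordinary chow until then. Liver and subcutaneous white adipose tissue were taken from both groups, giving 4 groups of 5 RNA-seq libraries (20 in all): sham liver, VAT removed liver, sham SAT and VAT removed SAT. The labels do not tie each library to a mouse of its own, so p-values measure the spread between libraries. These are whole tissues, in which fewer cells of a type and less RNA per cell cannot be told apart.

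NF-κB dimers wait in the cytoplasm bound to IκB proteins. Signals from cytokine and pattern receptors build ubiquitin chains that NEMO binds, and the kinases IKKα and IKKβ held by NEMO then mark IκB for destruction, which frees the dimers to enter the nucleus. A slower, non-canonical branch works through IKKα without NEMO and turns the p100 protein of Nfkb2 into p52, the partner of RelB. Many genes of the pathway, inhibitors among them, are themselves NF-κB targets. In obese liver and fat the pathway is known for its part in inflammation, and it is strongly used in lymphocytes and lymph node stroma.

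Total counts ran from 20307159 to 43618452 per library. Each library carried the marker of its labelled tissue: Alb (serum albumin) was at 38520 CPM or more in liver and at most 25.6 CPM in SAT, and Adipoq (adiponectin) was at 817.3 CPM or more in SAT and at most 0.421 CPM in liver. CPM are counts brought to a common library size over all 20 libraries by the trimmed mean of M-values (TMM). Libraries 3 and 4 of sham SAT stood apart. Their summed level of 16 lymphocyte and lymph node markers was 835.8 and 868.3 CPM, against 13.8 to 28.5 CPM in the other 8 SAT libraries, and the members' SAT differences below are given with and without them. Skeletal muscle markers also varied in SAT, from a sum of 14.3 CPM to 22320 CPM in VAT removed library 2.

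Promoter sequences are shown for 4 members, because the pathway feeds back on its own genes and because Ikbkg shares its start region with another gene. RefSeq windows of 300 bases on GRCm38.p6, from 250 bases before to 50 after an annotated start, were found for 7 of the 10 members (13 windows in all). They were searched on both strands for the κB consensus, a motif of 10 bases. In the first sequences capitals mark its matches, with overlapping ones run together. In the windows shown, Nfkb2 had matches starting 39, 38 and 11 bases before the start, Nfkbia 1 match 29 bases before it, and Tnfaip3 matches 125 and 12 bases before it. Of the windows not shown, the second of Nfkb2 had matches 236 bases before and 10 bases after its start, the third of Nfkb2 had 1 match 225 bases before it, and the second of Tnfaip3 had none.
Nfkb2, chr19:46304487-46304786, plus strand: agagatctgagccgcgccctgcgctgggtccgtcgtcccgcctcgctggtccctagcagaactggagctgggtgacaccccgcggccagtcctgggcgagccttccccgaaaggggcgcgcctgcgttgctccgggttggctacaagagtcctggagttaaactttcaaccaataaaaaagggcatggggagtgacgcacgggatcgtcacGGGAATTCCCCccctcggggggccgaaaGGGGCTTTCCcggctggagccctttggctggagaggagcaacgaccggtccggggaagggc
Nfkbia, chr12:55492598-55492897, minus strand: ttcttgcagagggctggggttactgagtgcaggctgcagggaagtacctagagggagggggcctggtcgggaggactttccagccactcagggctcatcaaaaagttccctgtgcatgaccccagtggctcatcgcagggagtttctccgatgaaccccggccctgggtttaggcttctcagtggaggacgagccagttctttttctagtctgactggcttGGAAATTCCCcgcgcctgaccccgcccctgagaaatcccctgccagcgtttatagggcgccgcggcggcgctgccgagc
Tnfaip3, chr10:19015361-19015660, minus strand: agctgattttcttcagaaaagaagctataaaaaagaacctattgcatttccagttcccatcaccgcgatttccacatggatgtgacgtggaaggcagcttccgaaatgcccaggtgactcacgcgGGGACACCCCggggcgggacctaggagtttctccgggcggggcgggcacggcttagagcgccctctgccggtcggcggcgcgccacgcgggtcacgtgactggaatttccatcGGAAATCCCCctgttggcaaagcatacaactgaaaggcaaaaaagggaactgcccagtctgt
Of all 32851 windows, 4.51% held at least 1 match and 0.554% held matches at 2 or more positions. The 4 windows of Ikbkg and those of Chuk, Rela and Nfkbib held none. A match describes these letters alone and says nothing of binding.

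The next window belongs to Ikbkg, and its capitals mark the 66 bases that it shares with the window of G6pdx, the gene of glucose-6-phosphate dehydrogenase, which is read the other way.
Ikbkg, chrX:74429065-74429364, plus strand: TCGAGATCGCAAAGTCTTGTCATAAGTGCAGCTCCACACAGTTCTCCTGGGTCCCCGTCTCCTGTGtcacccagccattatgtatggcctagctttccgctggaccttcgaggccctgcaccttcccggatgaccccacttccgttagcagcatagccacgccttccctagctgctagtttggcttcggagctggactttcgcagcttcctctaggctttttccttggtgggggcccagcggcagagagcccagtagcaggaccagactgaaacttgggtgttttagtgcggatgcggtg
In GENCODE M21 on GRCm38, Ikbkg (ENSMUSG00000004221, chromosome X, 74393290 to 74453854, plus strand) spans all of G6pdx (74409483 to 74429194, minus strand). The exons of the pair overlap by 418 bases, or 5.15% of the annotated exon bases of Ikbkg. The labels do not say whether counting used strand, so reads from those bases may belong to either gene, and G6pdx values stand beside those of Ikbkg. The same limit holds for Nfkb2, which shares 11.6% of its exon bases with AC114539.1 and 6.52% with Psd, and for Nfkbib, which shares 14.5% with Ccer2 and 1.94% with Sirt2, all on the opposite strand.

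In liver, Ikbkg was the member that stood lower after VAT removal. Sham livers 1 to 5 had 104.6, 106.4, 107.3, 111.9 and 113.5 CPM, and VAT removed livers had 82.9, 87.9, 82.1, 71.2 and 86.5 CPM. Every VAT removed liver lay below every sham liver, with means of 82.1 ± 6.58 CPM (SD, n = 5) and 109 ± 3.79 CPM. The log2 difference was -0.39 ± 0.07 (SE), a change of -24.5% in the mean. Non-overlap in that direction was found for 1.67% of the 17078 genes tested. The neighbour G6pdx had 13.8 ± 2.27 CPM in sham and 14.1 ± 3.28 CPM in VAT removed livers, a log2 difference of 0.03 ± 0.16.

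The kinase partners of NEMO in liver did not show that separation. Ikbkb, which encodes IKKβ, had 104, 103, 102.5, 106.4 and 109 CPM in sham livers and 101.8, 105.1, 100.3, 103.8 and 101.1 CPM in VAT removed livers, with ranges that overlap. Its log2 difference was -0.03 ± 0.05. Chuk, which encodes IKKα, had 167.6, 126.4, 145.5, 144.9 and 129.9 CPM in sham livers and 135.1, 125.4, 138, 137.6 and 133.6 CPM in VAT removed livers. The sham livers spanned nearly the whole range of Chuk, and the log2 difference was -0.08 ± 0.08.

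The coefficient of variation of Ikbkb over the 10 livers was 2.53%, rank 3 from the lowest among 17078 genes, where the median was 18.4%. That feature was picked out after its values were seen, and it depends on the scaling: by total counts the coefficient was 5.68% with rank 464. By median of ratios and by upper quartile in liver it was 2.72% and 2.43%, with ranks 3 and 2. A ratio of counts within a library needs no scaling. Ikbkg counts divided by Ikbkb counts were 1.00, 1.03, 1.05, 1.05 and 1.04 in sham livers 1 to 5 and 0.815, 0.837, 0.819, 0.686 and 0.855 in VAT removed livers. The groups did not overlap, with VAT removed liver 4 lowest. Because Ikbkb varied little over these livers, the ratio largely restates the Ikbkg values above and is no separate evidence. The share of other gene pairs whose ratios separate was not computed. Against Chuk, which varied more between livers, the same ratio ran from 0.624 to 0.873 in sham and from 0.517 to 0.701 in VAT removed livers, and these ranges overlap.

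**Figure D1:**
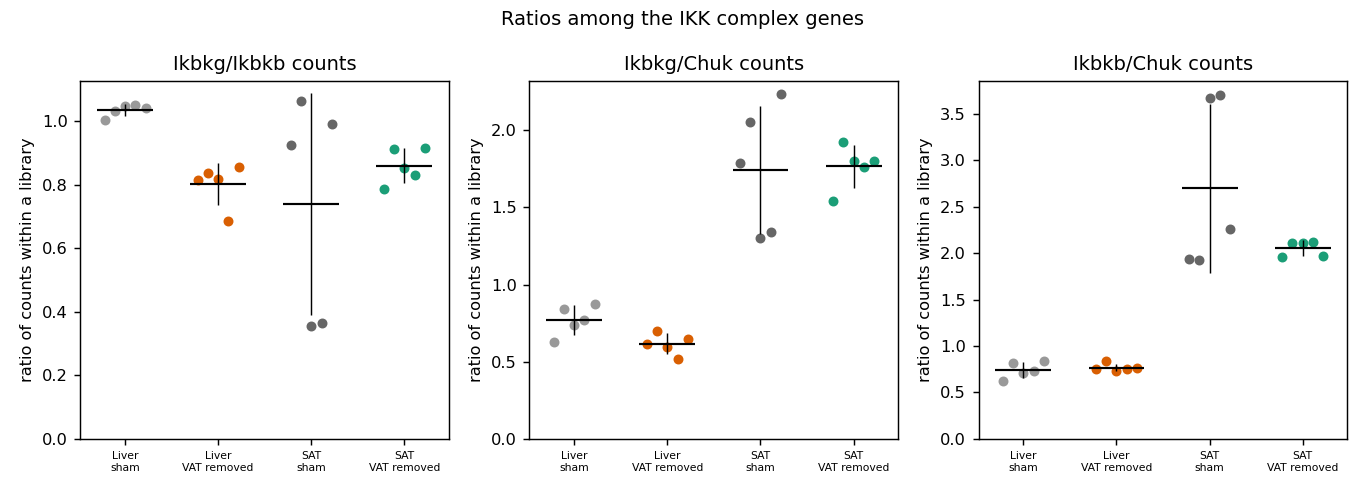
Ratios of raw counts within each library (vertical axis, no unit) for the IKK complex genes in the 4 groups of 5 libraries; points are libraries 1 to 5 from left to right, horizontal bars are means and vertical bars SD. The Ikbkg to Ikbkb ratio lies between 1.00 and 1.05 in sham livers and between 0.686 and 0.855 in VAT removed livers, and in SAT sham libraries 3 and 4 lie at 0.355 and 0.363.

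The transcription factor genes overlapped between the liver groups. Rela, whose product p65 carries the activation domain of the canonical dimer, had 71.5 to 99.6 CPM in sham (median 88.2) and 76.6 to 86.8 CPM (median 83.4) after VAT removal. Nfkb1, the gene of p105 and p50, had 48.4 to 72.0 CPM and 51.4 to 65.0 CPM. Nfkb2, the gene of p100 and p52, had 21.6 to 40.5 CPM in sham, and its 5 VAT removed values, 33.4, 30.3, 22.02, 30.8 and 34.3 CPM, lay within that range. Relb, the partner of p52, had 8.66, 9.77, 10.2, 8.84 and 14.1 CPM in sham and 13.0, 12.3, 5.68, 9.41 and 10.6 CPM in VAT removed livers. The highest of these Relb values was in sham liver 5 and the lowest in VAT removed liver 3. The log2 differences were -0.08 ± 0.09 for Rela, 0.02 ± 0.11 for Nfkb1, 0.06 ± 0.17 for Nfkb2 and -0.01 ± 0.21 for Relb.

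The inhibitors overlapped as well. Nfkbia, the gene of IκBα and an early target of the pathway, had 42.6, 55.9, 63.0, 62.9 and 66.9 CPM in sham and 59.9, 55.3, 63.4, 64.1 and 59.7 CPM in VAT removed livers. Nfkbib, the gene of IκBβ, had 22.6 to 31.4 CPM and 23.4 to 29.2 CPM. Tnfaip3, whose product A20 edits ubiquitin chains upstream of IKK, was the most uneven member in liver. It had 8.96, 23.4, 21.9, 18.4 and 31.8 CPM in sham and 16.0, 23.2, 11.3, 15.3 and 21.1 CPM in VAT removed livers. The log2 differences were 0.06 ± 0.11, -0.06 ± 0.10 and -0.26 ± 0.30. Sham liver 5 was highest of its group in 9 of the 10 members, Chuk being the exception. That liver also had the highest sum of 12 immediate early genes, 691.3 CPM against 390.8 to 533.6 CPM in the other livers; the part of that in its values was not tested.

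Over all genes, edgeR called 0.0% of 17078 in liver at an adjusted p under 0.05, and so 0 of the 10 members, with 1691 genes at an unadjusted p under 0.05. DESeq2 called 1.29%, and among the members Ikbkg alone. The median log2 difference of the 10 members was -0.04, beside 0.01 over all genes. Markers of other cells differed between single livers: the summed Kupffer cell markers ran from 123.6 to 295.9 CPM in sham and from 180.6 to 618.4 CPM after VAT removal, with VAT removed liver 1 highest. Without that liver the Ikbkg difference was -0.40. The part of these cells in the Ikbkg values was not tested.

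**Figure D2:**
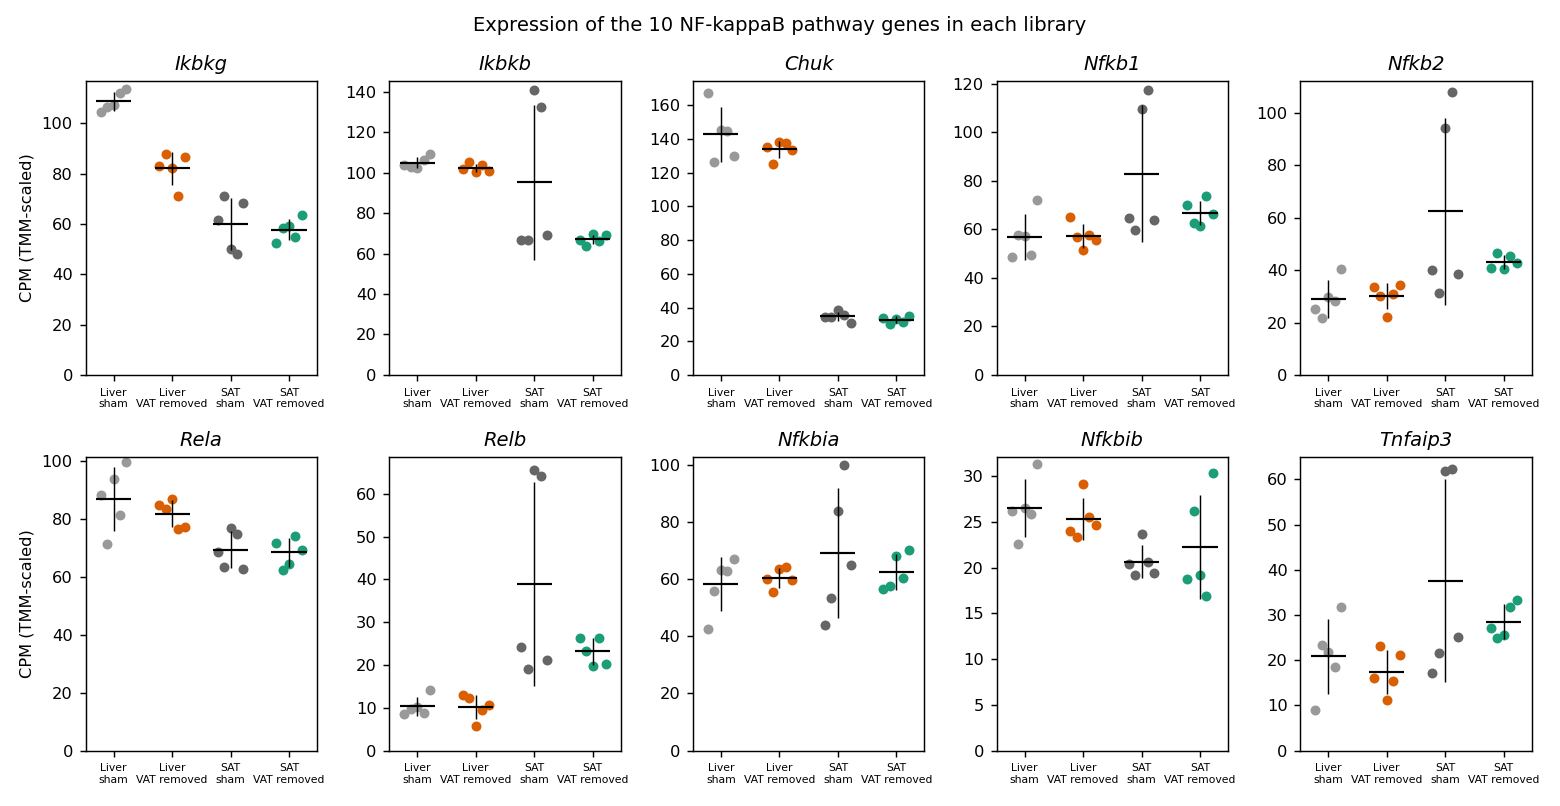
CPM (TMM-scaled, linear axes from 0) of the 10 members in the 20 libraries; points are libraries 1 to 5 from left to right within a group, horizontal bars are means and vertical bars SD (n = 5). Ikbkg separates the liver groups. Chuk, Relb and, narrowly, Ikbkg (at most 70.9 CPM in SAT, at least 71.2 CPM in liver) separate the tissues. In SAT, sham libraries 3 and 4 sit above the others for Ikbkb, Nfkb1, Nfkb2, Relb, Nfkbia and Tnfaip3.

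In SAT, sham libraries 3 and 4 set the picture for most members. Relb had 24.2, 19.1, 65.7, 64.3 and 21.2 CPM in sham libraries 1 to 5 and 26.4, 23.4, 19.7, 26.2 and 20.3 CPM in VAT removed libraries. The pair stood 2.88 times above the mean of the other 8. Nfkb2 had 39.9, 31.3, 94.4, 107.9 and 38.6 CPM in sham and 41.0, 46.4, 40.5, 45.4 and 42.6 CPM after VAT removal. Tnfaip3 had 17.1, 21.6, 61.9, 62.3 and 25.2 CPM in sham and 27.1, 24.8, 25.5, 31.7 and 33.4 CPM after VAT removal. For these genes the pair stood above the other 8 by 2.48 and 2.41 times.

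Ikbkb followed the same libraries, with 66.6, 66.7, 141.2, 132.6 and 69.2 CPM in sham SAT and 66.6, 63.7, 69.6, 66.0 and 69.2 CPM in VAT removed SAT. The other 8 libraries kept Ikbkb within 63.7 to 69.6 CPM. Nfkb1 (109.5 and 117.7 CPM in the pair, 59.6 to 73.7 CPM in the rest) and Nfkbia (83.6 and 99.9 CPM, 43.95 to 70.1 CPM in the rest) were higher there too. Rela and Chuk exceeded the other 8 by 1.13 times each, and Nfkbib lay inside their range. In all, 8 of the 10 members were above the range of the other 8 libraries in both, where 24.7% of 18530 genes were. Ikbkg was below it, as were 19.5% of genes.

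Ikbkg therefore ran opposite to its partner kinase gene in that pair of libraries. It had 61.6, 70.9, 50.2, 48.1 and 68.5 CPM in sham SAT and 52.4, 58.2, 59.3, 54.9 and 63.4 CPM in VAT removed SAT. Ikbkg counts divided by Ikbkb counts were 0.925, 1.06, 0.355, 0.363 and 0.990 in sham and 0.786, 0.914, 0.852, 0.831 and 0.916 after VAT removal. G6pdx was lower in the same pair, at 107.1 and 99.3 CPM against 159 to 189.8 CPM in the other 8 libraries. The pair is marked by Ms4a1 and Cd3e, genes of B and T cells, which reached 58.1 and 45.5 CPM in sham SAT and at most 0.663 and 2.06 CPM after VAT removal. The summed Kupffer cell markers were also higher in the pair, at 58.5 and 158.9 CPM against 6.03 to 13.8 CPM. That sum is named after its marker list and does not identify the cells, and its markers differed from each other. Their surgery differences in SAT with all libraries describe whole groups and not the pair alone. On the log2 scale they were -2.86 ± 1.04 (Cd5l), -3.20 ± 1.17 (Marco), -2.53 ± 0.66 (Timd4) and -0.26 ± 0.46 (Vsig4). Clec4f was not among the genes tested in SAT. Summed adipocyte markers were lowest there, at 12730 and 11290 CPM against 15820 to 22540 CPM in the other 8 libraries, as were fibroblast markers, at 4053 and 4300 CPM against 5393 to 8025 CPM. The part of these markers in the NF-κB values was not tested.

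**Figure D3:**
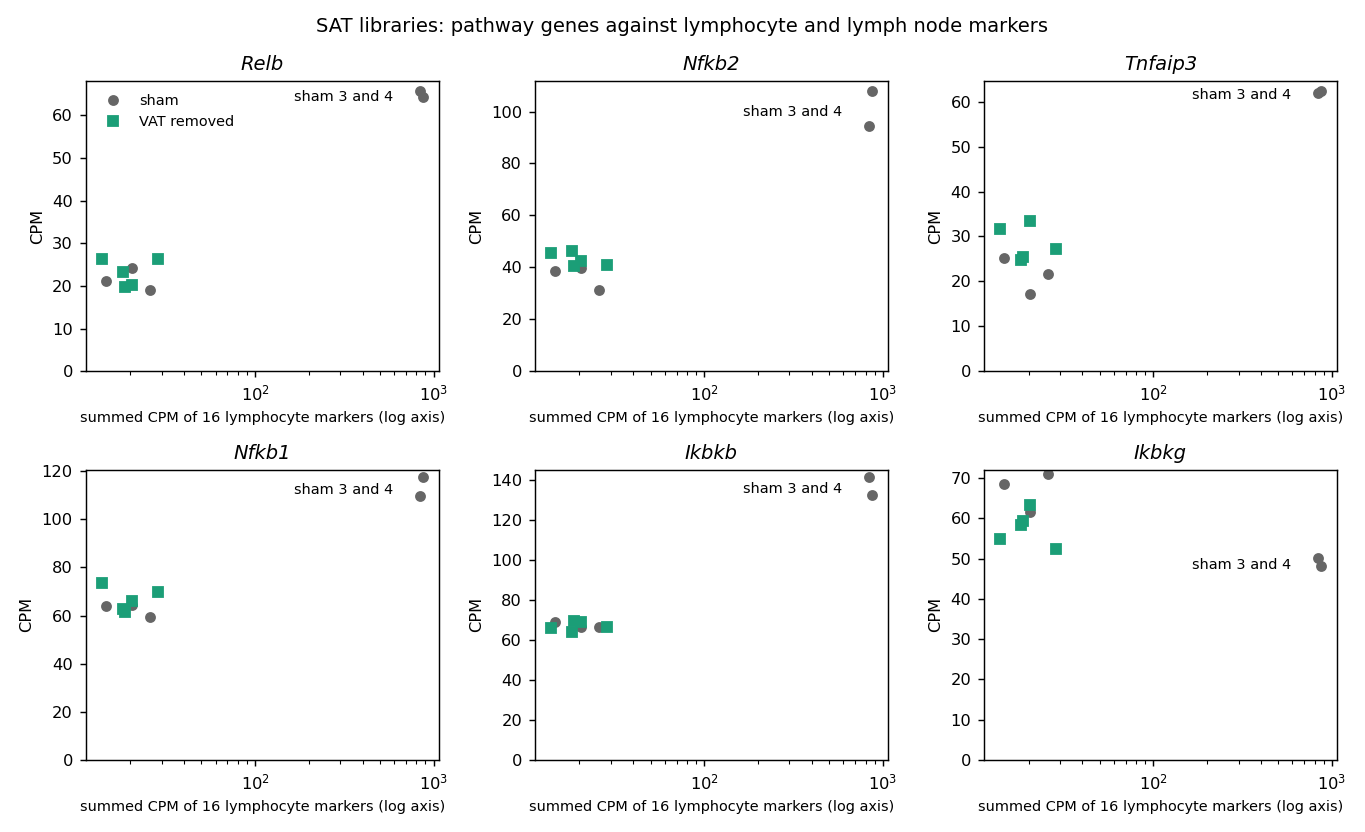
CPM of 6 members (vertical axes, from 0) against the summed CPM of 16 lymphocyte and lymph node markers (log axis) in the 10 SAT libraries; circles are sham and squares VAT removed libraries. Sham libraries 3 and 4 lie at 835.8 and 868.3 CPM of the markers, with high Relb, Nfkb2, Tnfaip3, Nfkb1 and Ikbkb and low Ikbkg.

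With all 10 SAT libraries the surgery differences were negative for 9 of the 10 members, and for 3 of the 10 without that pair. On the log2 scale Relb differed by -0.73 ± 0.36 with all libraries and by 0.12 ± 0.13 without the pair. Nfkb2 went from -0.51 ± 0.33 to 0.25 ± 0.09, Tnfaip3 from -0.38 ± 0.36 to 0.43 ± 0.14, and Nfkb1 from -0.30 ± 0.20 to 0.10 ± 0.08. Ikbkb went from -0.49 ± 0.22 to 0.00 ± 0.06 and Nfkbia from -0.13 ± 0.20 to 0.22 ± 0.13. The remaining members had -0.07 ± 0.08 and -0.01 ± 0.08 (Chuk), 0.00 ± 0.08 and 0.08 ± 0.08 (Rela), and 0.13 ± 0.16 and 0.19 ± 0.18 (Nfkbib). Leaving out the pair leaves 3 sham libraries.

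Ikbkg in SAT differed by -0.04 ± 0.12 with all libraries and by -0.21 ± 0.08 without sham libraries 3 and 4. Without them the sham values of 61.6 to 70.9 CPM and the VAT removed values of 52.4 to 63.4 CPM still overlap, and 5 of 5 VAT removed libraries lay below the mean of 67.0 CPM. Nfkb2 was the member whose ranges separated upward without the pair, at 31.3 to 39.9 CPM against 40.5 to 46.4 CPM, as did 2.84% of the genes tested. With all 10 libraries no member's ranges separated, where 0.696% of genes separated upward and 0.788% downward. G6pdx was higher in all 5 VAT removed SAT libraries (168.3 to 189.8 CPM) than in any sham one (99.3 to 163.4 CPM).

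**Figure D4:**
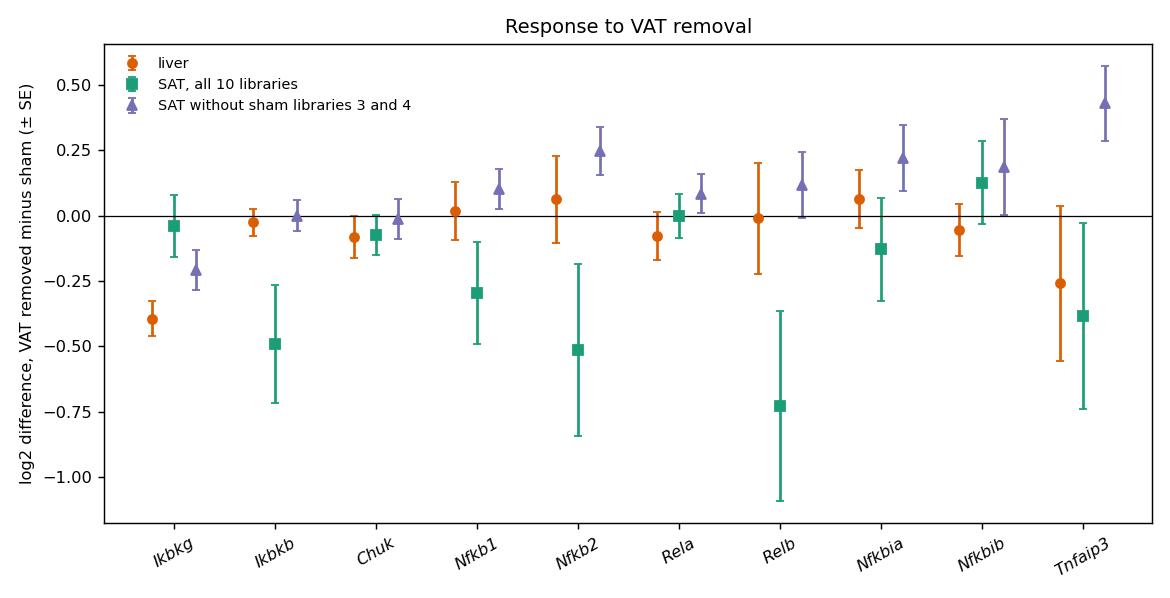
Log2 difference of VAT removed minus sham (vertical axis, bars are SE) for the 10 members in liver, in SAT with all 10 libraries, and in SAT without sham libraries 3 and 4. Ikbkg is at -0.39 in liver, and Relb, Nfkb2, Nfkb1 and Tnfaip3 are below 0 with all SAT libraries and above 0 without the pair.

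In SAT edgeR called 0.0% of 18530 genes and 0 of the 10 members, with 1973 genes at an unadjusted p under 0.05, and DESeq2 called 0.853% of genes and 0 members. The median of the members was -0.21, or 0.11 without the pair, beside 0.00 and 0.01 over all genes. The difference in response between the tissues, SAT minus liver, was 0.35 ± 0.14 on the log2 scale for Ikbkg, and 0.17 ± 0.10 without sham SAT libraries 3 and 4. For Ikbkb it was -0.47 ± 0.24, or 0.01 ± 0.07 without them. In that contrast edgeR called 0.0% of 19954 genes, with 2021 at an unadjusted p under 0.05, and DESeq2 called 0.621%, with 0 members under either tool.

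The wider pathway was read from 92 other genes listed by role. In liver 80 of them were tested and edgeR called 0; 1 was higher and 5 were lower at an unadjusted p under 0.05, beside 4.68% and 5.22% of all genes. Their median log2 difference was -0.05. Among 24 receptors and adaptors of the canonical branch, Irak1, a kinase of interleukin-1 and Toll-like receptor signalling, had 96.0 ± 5.26 CPM in sham and 81.9 ± 3.96 CPM in VAT removed livers, without overlap, a log2 difference of -0.22 ± 0.06 (edgeR adjusted p = 0.309). Irak4, the kinase that acts on it, differed by 0.22 ± 0.09 (adjusted p = 0.444). Tradd and Traf5, adaptors of tumour necrosis factor receptors, differed by 0.23 ± 0.12 and -0.26 ± 0.14.

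Of the 14 genes of linear ubiquitin chains and deubiquitinases, 13 were tested in liver, and those at an unadjusted p under 0.05 were 3 with lower values. They include Rnf11, a part of the A20 complex, at -0.29 ± 0.08 on the log2 scale (edgeR adjusted p = 0.309). The others were Otud7b, the deubiquitinase Cezanne, at -0.26 ± 0.09 (adjusted p = 0.408) and Usp18 at -1.30 ± 0.50 (adjusted p = 0.438). On the other side, Tnip2 and Itch, genes of further A20 partners, differed by 0.15 ± 0.11 and 0.06 ± 0.09. In the non-canonical branch, with 7 of 11 genes tested, Traf3, which holds the NF-κB-inducing kinase in check, differed by -0.35 ± 0.12 (adjusted p = 0.372). Ltb, Map3k14 and Tnfsf13b differed by 0.57 ± 0.41, 0.10 ± 0.15 and -0.16 ± 0.43.

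Target genes of NF-κB in liver had a median log2 difference of -0.05, with 0 of 23 tested genes at an unadjusted p under 0.05. Cxcl10 and Ccl2, chemokine genes, differed by -1.25 ± 0.65 and -0.54 ± 0.48, and Mmp9 and Il1b, the genes of a matrix protease and of interleukin-1β, by 1.11 ± 0.71 and 1.09 ± 0.70. Cxcl10 averaged 11.4 ± 13.3 CPM in sham livers, a spread wider than its mean. The other Rel, IκB and IKK-related genes, 13 tested, had 0 at an unadjusted p under 0.05 by edgeR, with Rel at 0.13 ± 0.14, Nkiras2 at 0.05 ± 0.09, Tank at -0.19 ± 0.11 and Nkap at -0.07 ± 0.09.

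In SAT 86 of the 92 genes were tested and edgeR called 0. With all libraries 3 were higher and 11 lower at an unadjusted p under 0.05, beside 4.38% and 6.27% of all genes. Without sham libraries 3 and 4 there were 3 and 3, where 1670 of 19035 genes passed that threshold in either direction. The non-canonical branch held the largest differences: Tnfrsf13c, the BAFF receptor gene of B cells, averaged 10.1 ± 13.4 CPM in sham and 0.308 ± 0.0771 CPM after VAT removal, a log2 difference of -5.01 with all libraries and -0.10 without the pair, and Ltb, the lymphotoxin β gene, at -4.05 ± 1.30 and 0.32. DESeq2 called both of these with all libraries. Ccl5 and Traf1 went from -2.78 ± 0.83 and -1.99 ± 0.76 to -0.42 and 0.20, and Rel, a lymphoid subunit gene, from -1.21 ± 0.51 to 0.08. Nfkbid, an atypical IκB gene, went from -1.41 ± 0.68 to 0.39, and Birc2, the gene of a ubiquitin ligase at the receptors, from -0.62 ± 0.25 to -0.08.

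Further pathway genes in SAT varied in how much of their difference remained without the pair. Tnip3, an A20-binding gene, averaged 2.94 ± 0.988 CPM after VAT removal and 1.77 ± 0.371 CPM in sham (0.74 ± 0.25 on the log2 scale, 0.71 without the pair, edgeR adjusted p = 0.431). Cxcl10 averaged 8.21 ± 0.912 CPM against 6.37 ± 0.656 CPM (0.38 ± 0.12, 0.31 without the pair). Usp18 was at -0.64 ± 0.23 (-0.77 without the pair) and Il1rap, the co-receptor gene of interleukin-1, at -0.38 ± 0.16 (-0.43). Cyld, a deubiquitinase gene that restrains IKK, did not overlap between the groups, at 42.1 ± 2.63 CPM against 57.0 ± 11.2 CPM, and its difference of -0.42 ± 0.12 was -0.21 without the pair. Mmp9, Tab3, Irak2, Otud7b, Commd1, Nkiras2 and Ltbr had positive differences of 0.09 to 0.77, which without the pair were 0.57, 0.22, 0.09, 0.10, 0.09, 0.00 and -0.05 in that order.

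On the TMM scale, Chuk and Ikbkg were lower in SAT than in liver and Relb was higher. This contrast does not rest on surgery and was tested in sham and in VAT removed mice. The 2 sets have no library in common but share the kind of scaling, so neither checks the scaling of the other. Chuk showed the widest gap: 30.2 to 38.5 CPM over the 10 SAT libraries and 125.4 to 167.6 CPM over the 10 livers. Its log2 difference, SAT minus liver, was -2.01 ± 0.10 in sham and -2.04 ± 0.06 in VAT removed mice (edgeR adjusted p = 1.79e-08 and 2.12e-10), and -2.05 ± 0.11 in sham without SAT libraries 3 and 4 (1.24e-07). Ikbkg was lower in SAT, with -0.83 ± 0.12 in sham and -0.51 ± 0.07 in VAT removed mice (adjusted p = 0.000104 and 7.57e-05), and -0.64 ± 0.07 in sham without the pair (3.75e-05). All differences between the tissues rest on the scaling of liver against SAT libraries. The TMM factors were 0.811 to 0.853 in VAT removed livers and 1.07 to 1.27 in VAT removed SAT. On the log2 scale the Ikbkg difference in VAT removed mice is close in size to that gap. The differences of Rela and Nfkbib given below are smaller than it, so these 3 genes depend on the scaling most. Ikbkb differed by -0.12 ± 0.22 in sham (adjusted p = 0.657), by -0.58 ± 0.06 without SAT libraries 3 and 4 (2.51e-05), and by -0.61 ± 0.05 after VAT removal (7.36e-07).

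Among the subunits, Relb was higher in SAT by 1.93 ± 0.38 on the log2 scale in sham (edgeR adjusted p = 0.00087), 1.11 ± 0.17 without SAT libraries 3 and 4 (0.000303) and 1.18 ± 0.19 after VAT removal (0.000169). Nfkb2 was higher in SAT by 1.12 ± 0.35 (0.0148) in sham and 0.51 ± 0.11 (0.00118) after VAT removal, but had 0.39 ± 0.19 (0.0993) in sham without the pair. Nfkb1 was higher by 0.57 ± 0.21 (0.0328) and 0.22 ± 0.08 (0.0227), with 0.19 ± 0.13 (0.238) in sham without the pair. The sham call of Nfkb1 also ended with library number as a replicate block (0.52, adjusted p = 0.0761) and without any 1 of sham livers 1 to 4 or sham SAT 3 or 4 (adjusted p of 0.0592 to 0.0841). Its call in VAT removed mice ended without liver 3 or 5 or SAT 4 (0.0551, 0.0534 and 0.0536). Rela was lower in SAT, with -0.30 ± 0.10 (0.0238) and -0.26 ± 0.07 (0.00548), and with -0.36 ± 0.11 (0.016) in sham without the pair. The sham call of Rela ended with no filter on low counts (0.0506) and without sham liver 3 or 5 (0.0523 and 0.0512). Counts of Nfkb2 divided by those of Rela were 0.254 to 0.445 over the 10 livers and 0.493 to 0.744 in the SAT libraries other than sham 3 and 4, which had 1.23 and 1.44. The tissues differ in their cells: summed macrophage markers were 273.8 to 715.1 CPM in liver and 673.5 to 1344 CPM in SAT, and the part of this in the members' values was not tested.

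Among the inhibitors, Nfkbia had a log2 difference of 0.27 ± 0.21 in sham (edgeR adjusted p = 0.282), -0.05 ± 0.16 without the pair (0.795) and 0.05 ± 0.08 after VAT removal (0.614). Tnfaip3 had 0.87 ± 0.42 (0.0916) in sham, 0.08 ± 0.33 (0.855) without the pair, and was higher in SAT by 0.71 ± 0.18 (0.00377) after VAT removal. Nfkbib was lower in SAT in sham, with -0.33 ± 0.10 (0.0123), or -0.37 ± 0.11 (0.0133) without the pair, and had -0.19 ± 0.15 (0.302) after VAT removal. In total 3 members were higher in SAT and 4 lower in sham, beside 35.3% and 29.7% of all genes, and 4 and 4 in VAT removed mice, beside 35.0% and 34.7%. Without SAT libraries 3 and 4 it was 1 and 5 in sham, beside 32.9% and 31.2%, so the share of members that differ is close to that of all genes.

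**Figure D5:**
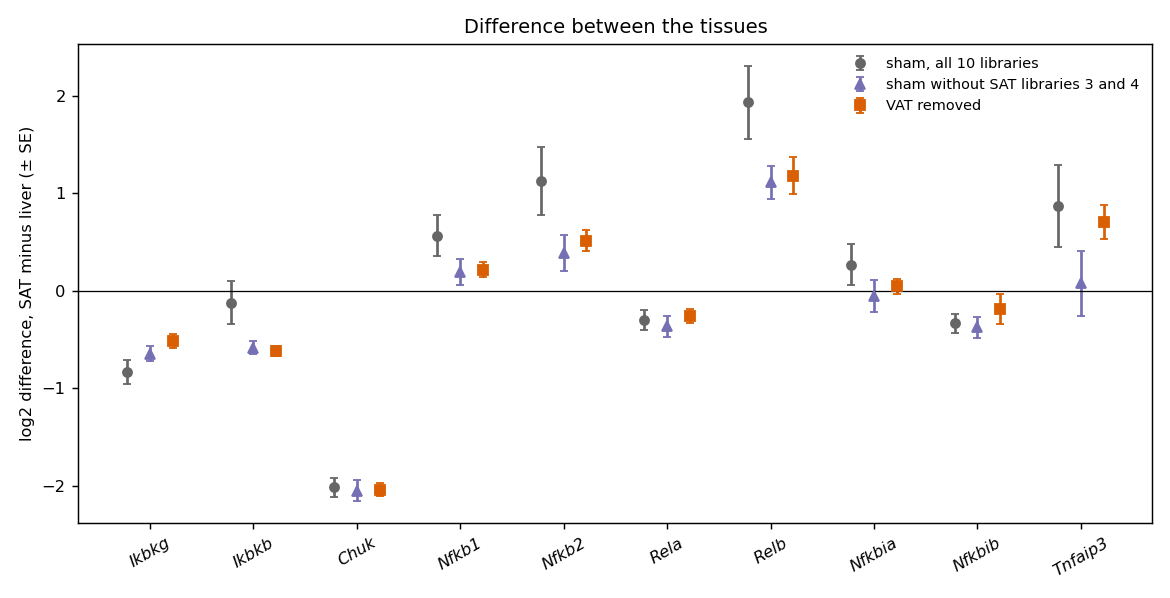
Log2 difference of SAT minus liver (vertical axis, bars are SE) for the 10 members in sham mice, in sham mice without SAT libraries 3 and 4, and in VAT removed mice. Chuk lies near -2 in all 3 sets, and the sham values of Ikbkb, Nfkb1, Nfkb2, Relb and Tnfaip3 move down without the pair, to near those of VAT removed mice except for Tnfaip3.

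Levels between members can be set side by side only per length, here as CPM per kilobase of all annotated exons, a scale that understates genes with long rare exons such as Ikbkb (19.1 kb). In sham liver Nfkbia was highest at 36.2 ± 5.95 CPM per kb (SD, n = 5), followed by Rela at 28.3 ± 3.56 and Chuk at 28.1 ± 3.2, which did not differ beyond their spread. Ikbkg at 13.4 ± 0.467 and Nfkbib at 12.2 ± 1.45 CPM per kb were likewise neighbours within their spread. Nfkb2, Ikbkb and Nfkb1 had 6.34 ± 1.56, 5.5 ± 0.141 and 4.72 ± 0.779 CPM per kb, and Tnfaip3 and Relb were lowest at 2.89 ± 1.15 and 2.65 ± 0.572. In VAT removed SAT the order began with Nfkbia (38.8 ± 3.89 CPM per kb) and Rela (22.3 ± 1.62) as well. Ikbkg (7.11 ± 0.522), Chuk (6.43 ± 0.4) and Relb (5.97 ± 0.81) were close to each other there.

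Across the 4 groups Ikbkg ranked in the order sham liver, VAT removed liver, sham SAT and VAT removed SAT, at 109 ± 3.79, 82.1 ± 6.58, 59.8 ± 10.4 and 57.6 ± 4.23 CPM. That order across tissues depends on the TMM factors, which were 0.752 to 0.891 in liver and 1.07 to 1.36 in SAT. The ranges of the SAT groups overlap. The genes whose level followed Ikbkg most closely over the 10 livers, by Pearson's r of log2 CPM among 12792 genes, were Psmd7 (0.961), Ttyh2 (0.956), Cpsf2 (0.955), Bop1 (0.944) and Tbce (0.933). They were picked over the same livers whose groups Ikbkg separates, so a separation of their own groups follows largely from that choice. Ttyh2 averaged 160.8 ± 11.9 CPM after VAT removal against 202.7 ± 6.76 CPM in sham, and Psmd7 54.9 ± 3.04 CPM against 67.7 ± 3.08 CPM. Over the 10 SAT libraries, among 13288 genes, they were Jmjd8 (0.973), Pex11a (0.971), Eipr1 (0.970), L3hypdh (0.961) and Tmx2 (0.960), and without sham libraries 3 and 4 their r was 0.935 to 0.979. These values are a description of libraries that share their depth and makeup.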

How the data were processed

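Total RNA of frozen liver and SAT pieces went through a ribosomal depletion step (RiboErase), per the labels' protocols. Per the submitters' processing notes, bcl2fastq, STAR 2.5.1a and featureCounts 1.46 of Subread were used with GRCm38; the annotation, the strand setting and the treatment of multiply mapped reads were not given in the sources used here. The authors deposited raw counts per gene symbol, 20 libraries in 1 table. Of 40757 entries, 317 exact repeats were dropped. Errors are the SD between libraries or the SE of the fit.

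Each comparison was fitted over all genes in edgeR 4.0.16 (R 4.3.3) with filterByExpr, TMM and a robust quasi-likelihood test with Benjamini-Hochberg adjustment (threshold 0.05). Surgery was fitted within each tissue, tissue within each surgery, and the difference in response over all 20 libraries. The fits were also run on simulated counts, in which the groups shared a common mean per gene apart from a set of changed genes. Those counts held no outlying pair like sham SAT libraries 3 and 4 and no wide tissue difference. The outcome is not given here and nothing is read from it. Members and gene lists were chosen with earlier results of these data known. Named were all members, G6pdx, in each pathway list the genes called in a surgery comparison (at most 4 per direction) or otherwise the 2 with the smallest p per direction, and 5 genes per tissue most like Ikbkg with a mean of at least 1 CPM. Exon lengths and positions came from GENCODE M21, promoters from RefSeq (GRCm38.p6). Alternatives were DESeq2 1.42.0, limma-voom (limma 3.58.1), RLE scaling, no filter, at least 1 CPM in 5 libraries, 1 fit of all libraries, a block for the library number, and omission of single libraries. Sham SAT libraries 3 and 4 were also left out together, for SAT, the difference in response and the tissues in sham mice. That pair was picked after seeing the data.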

Additional observations from a re-analysis of the deposited data

Results flagged for a closer look

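Relb in sham liver 5 stood apart from its group, at 14.1 CPM against 8.66 to 10.2 CPM in the other 4 sham livers, a gap of 0.724 of the group's range where 0.710 is the limit for 5 values. It was the 1 value so marked in 40 groups of 5 (10 members in 4 groups), and chance marks about 1 group in 20. The check looks for 1 extreme value at a time. It could not mark 2 high values side by side, such as Relb at 65.7 and 64.3 CPM in sham SAT libraries 3 and 4.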

How the results depend on the processing

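Counts of called genes in the surgery comparisons depended on the tool. In liver edgeR called 0 genes, and 220 were called by DESeq2, 3 by limma-voom, 3 with no filter, 3 with at least 1 CPM in 5 libraries and 27 in 1 fit of all libraries. Leaving out 1 library gave 0 to 53 genes, the highest without VAT removed liver 3. In SAT DESeq2 called 158 genes and leaving out 1 library gave 0 to 1; for the difference in response these were 124 and 0 to 3. Of the other pathway genes, DESeq2 called 2 in SAT (Ltb and Tnfrsf13c) and 1 in the difference in response (Ltb), where edgeR called 0. The cause was not tested. The replicate block, with library number as a term, called 0 genes in liver, SAT and the difference in response, and 10985 and 12525 between tissues in sham and VAT removed mice, beside 11991 and 12920 without it. It changed 1 call of a member, Nfkb1 between the tissues in sham (0.52, adjusted p = 0.0761). Correlations of same-numbered libraries did not meet the rule for pairing, which asks for more than 0.1 in every pair. Their extremes, -0.207 and 0.314, lie between sham and VAT removed SAT, which come from different mice. Only liver and SAT of the same surgery group could share mice, and in sham those correlations ran from -0.115 to 0.0796. Between VAT removed liver and SAT all 5 were positive (0.0155 to 0.0644), and 4 of 5 libraries correlated best with their own number, a hint from the data and not the design.

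The log2 difference of Ikbkg in liver stayed between -0.35 and -0.42 without single libraries. Between the tissues 5 to 7 members were called in sham and 7 to 8 in VAT removed mice without single libraries. The tissue calls of Nfkb1 and Rela ended under the settings named beside them. Nfkbia in sham turned from 0.27 to -0.0533 without sham SAT libraries 3 and 4.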
